A study of Saccharomyces cerevisiae with 12 samples.

Results

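The transcripts of 59 genes for assembly factors of the 60S ribosomal subunit, the large subunit of the yeast ribosome, were followed in 12 RNA sequencing libraries of Saccharomyces cerevisiae. The genes were taken by their systematic names from the first column of the deposited count table, which lists 7127 features, and all 59 were found there. NTT1 is a nucleotide transporter of Encephalitozoon cuniculi, a microsporidian that lives inside host cells. The 4 groups were the NTT1 strain with 5 mM ATP in the medium for 1 h, the NTT1 strain without ATP, the wild type with 5 mM ATP for 1 h and the wild type without ATP, with 3 biological replicates in each. The NTT1 strain carried PH-NTT1 integrated in the genome together with the QUEEN reporter in a BY29034 background, so a strain difference covers the transporter and the reporter together. Wild type here is the empty-vector control, and each of its 6 samples has a source name of its own, BY29034 to BY29039, in the labels. What these names distinguish is not given in the sources used here. Cells were harvested at mid-log phase from a complete synthetic medium. The transporter and reporter transcripts were not analysed here, and each library's strain rests on its labels.

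Assembly of the 60S subunit begins on the large rRNA precursor in the nucleolus, passes through the nucleoplasm and ends in the cytoplasm. Assembly factors bind the precursor particle for part of this path: RNA helicases and scaffold proteins act early, GTPases and AAA ATPases drive later remodelling and release, and placeholder and export factors accompany the particle to the cytoplasm. In yeast these genes belong to the ribosome biogenesis regulon, which is transcribed together in growing cells and turned down together under starvation and stress. Many of its promoters are known to hold the PAC element and the RRPE element, and these letters were looked for first.

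The window from 250 bases before the start codon to 50 bases into the coding sequence was read for 6001 protein-coding genes from the RefSeq genome of build R64, the build named by the submitters, and all 59 assembly factor genes had a window. The PAC core, GATGAG on either strand, stood in 55 of the 59 windows (93.2%, Clopper-Pearson 95% interval 83.5 to 98.1), against 1222 of all 6001 (20.4%). The RRPE core, AAAATTTT, which reads the same on both strands, stood in 46 of the 59 (78%, interval 65.3 to 87.7), against 542 of all windows (9.03%). Both cores stood in 42 (71.2%), against 263 of all windows (4.38%), and no assembly factor window lacked both. With the longer form GCGATGAG, which contains the PAC core, the count was 35 of 59 (59.3%), against 236 of all (3.93%). Upstream of the start codon, the nearest PAC core ended at a median of 112 bases from it in 54 genes (48 to 217), and the nearest RRPE core at a median of 132 bases in 46 genes (90 to 240). Of the 41 genes with both cores upstream, the PAC core lay nearer the start codon in 38. These are letter matches in a fixed window and show no binding.

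The stretches that hold the cores are printed for the genes on which the later results turn, each 5′ to 3′ along the strand of its gene, with 10 bases on either side. Capitals mark every GATGAG or its reverse complement CTCATC and every AAAATTTT. The first 6 belong to 6 of the 8 genes with both cores that passed the test for ATP in wild type. They lie at chrXIV:723248-723303 (minus strand) for NOG2, chrIII:242429-242487 (minus strand) for RSA4, chrXVI:370825-370885 (plus strand) for NOG1, chrVIII:210697-210740 (plus strand) for CIC1, chrIV:1443482-1443529 (minus strand) for PUF6 and chrXI:426093-426141 (plus strand) for MRT4.
NOG2: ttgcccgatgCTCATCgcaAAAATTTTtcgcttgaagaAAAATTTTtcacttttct
RSA4: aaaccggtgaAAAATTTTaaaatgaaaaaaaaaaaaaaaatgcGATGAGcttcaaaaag
NOG1: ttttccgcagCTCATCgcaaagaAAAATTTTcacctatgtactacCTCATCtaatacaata
CIC1: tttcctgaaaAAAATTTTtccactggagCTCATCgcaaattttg
PUF6: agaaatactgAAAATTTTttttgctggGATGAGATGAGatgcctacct
MRT4: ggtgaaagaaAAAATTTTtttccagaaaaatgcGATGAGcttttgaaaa
These are the 6 shortest stretches of the 8 genes with both cores that passed, and the cores stand in either order and on either strand. The stretches of the other 2, NSA2 and RRP15, span 128 and 131 bases and are not printed.

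Both cores were also found upstream of MDN1, at chrXII:363928-363969 (minus strand), and NOP7, at chrVII:695266-695330 (plus strand), the members with the smallest fitted ATP differences in wild type. They are shown because letters of the same kind stood upstream of genes at both ends of the range of ATP differences.
MDN1: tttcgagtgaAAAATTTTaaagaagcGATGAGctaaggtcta
NOP7: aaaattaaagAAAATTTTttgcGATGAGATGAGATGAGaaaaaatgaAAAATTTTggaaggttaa
The 4 genes with no PAC core in the window were SPB1, IPI1, RIX1 and NSA1, each of which has an RRPE core. Of these, 2 passed the test in wild type and are printed, SPB1 at chrIII:31306-31333 (plus strand) and IPI1 at chrVIII:276635-276662 (plus strand).
SPB1: ttttgtctgaAAAATTTTttgcgatgcc
IPI1: aggccatcggAAAATTTTtccaccagaa
SSF1 and SSF2 have nearly the same coding sequence but different upstream letters. SSF1, at chrVIII:229223-229253 (plus strand), has 2 overlapping PAC cores and no RRPE core, and SSF2, at chrIV:1087346-1087475 (plus strand), has an RRPE core far upstream of a PAC core.
SSF1: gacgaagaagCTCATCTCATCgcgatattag
SSF2: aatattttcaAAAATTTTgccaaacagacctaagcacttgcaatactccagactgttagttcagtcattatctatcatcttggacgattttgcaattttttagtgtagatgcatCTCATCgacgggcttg

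Library totals ranged from 14845855 to 20714804 counts, and 6157 genes, all 59 assembly factor genes among them, passed the filter on low counts. The 3 untreated wild-type libraries did not lie together, and which of them is unusual cannot be told from 3. Untreated wild-type replicate 3 lay above untreated wild-type replicates 1 and 2 in 59 of the 59 genes, where 38.4% of all genes tested had this order. Over the mean of replicates 1 and 2 it was higher by a median of 1.67-fold (log2 0.74, from 0.38 for TIF6 to 1.23 for NOG2). It lay above at least 1 treated wild-type library in 44 of the 59 genes, beside 65.7% of all genes, and above every treated wild-type library in 28, beside 33.7% of all genes. Replicates 1 and 2 lay below every treated wild-type library in 59 of 59, beside 27.5% of all genes. They also lay below every untreated NTT1 library in 45 of 59, beside 17.1% of all genes. No label sets replicate 3 apart, its culture or source strain was not tested as a source of the difference, and counts of calls, role groups and medians for ATP in wild type are given with all 12 libraries and then without it. Giving the fit without this library in full was chosen after its values in these 59 genes were seen. Counts from that fit describe dependence on 1 library and are no separate support for a difference.

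**Figure D1:**
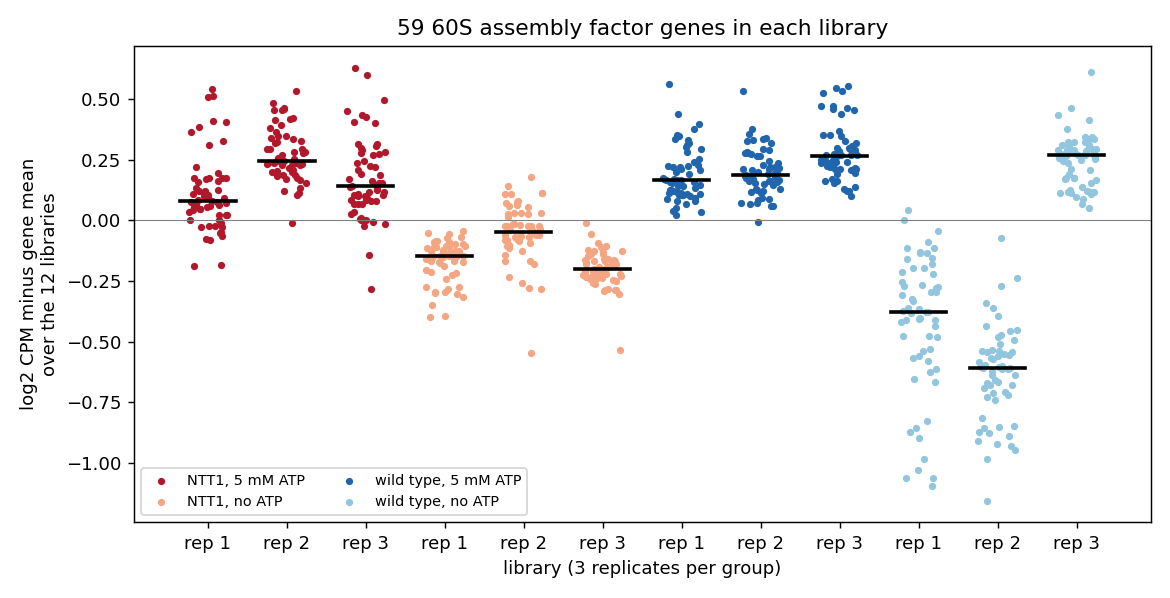
Log2 normalised count (CPM) of each of the 59 genes in each library, minus that gene's mean over all 12 libraries; points are genes and black bars are library medians. The medians are 0.08, 0.25 and 0.14 in the treated NTT1 libraries, -0.15, -0.05 and -0.20 in the untreated NTT1 libraries, 0.17, 0.19 and 0.26 in the treated wild-type libraries, and -0.38, -0.61 and 0.27 in the untreated wild-type libraries.

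Summed over the 59 genes, normalised counts (CPM) were 8968, 10082 and 9416 in the treated NTT1 libraries, 7476, 8077 and 7228 in the untreated NTT1 libraries, 9518, 9663 and 10167 in the treated wild-type libraries, and 6452, 5444 and 9976 in the untreated wild-type libraries. The sums do not overlap between treated and untreated NTT1 libraries. In wild type, untreated replicate 3 falls among the treated libraries. The group means were 9488 ± 561 CPM in NTT1 with ATP, 7594 ± 436 in NTT1 without ATP, 9783 ± 341 in wild type with ATP and 7291 ± 2380 in wild type without ATP (SD, n = 3 each). In bulk RNA, a change per cell and a change in the mix of cells cannot be told apart. The highest library of a gene was untreated wild-type replicate 3 for 24 genes, and the lowest was untreated wild-type replicate 2 for 48. The shares of all genes with these libraries as highest or lowest were not counted.

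Levels can be compared between genes only per length, here as CPM per kilobase of coding sequence averaged over the 12 libraries. The median of the 59 genes was 89.8 CPM per kilobase, against 46.0 over 5775 tested genes with a RefSeq coding length. TIF6 (YPR016C), the yeast eIF6 that keeps an immature large subunit from joining the small one, was highest at 421.6, above 92.7% of those genes. RLP24, a placeholder for a ribosomal protein, followed at 264.1 and BRX1, an early scaffold protein, at 221.2. MDN1 (YLR106C, REA1 in RefSeq), the giant AAA ATPase that strips factors from the particle, was lowest at 10.4, above 10.4% of genes, with a coding sequence of 14733 bases. DBP7, URB1, URB2 and RIX1 had 20.4 to 32.4 CPM per kilobase and stood next above it.

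With ATP, the NTT1 strain had more transcript of every assembly factor gene on average, but none of the 59 passed the test. The median log2 fold change of the 59 was 0.27, a 1.21-fold difference, and ranged from 0.07 for NIP7 to 0.85 for NOG2. Over all genes tested the median was 0.00. Every treated NTT1 library lay above every untreated NTT1 library in 44 of the 59 genes (74.6%), beside 18.5% of all genes in that direction and 17.7% in the opposite one, which no assembly factor gene showed. At an adjusted p under 0.05, edgeR's quasi-likelihood test called 0 of the 59, against 2.97% of all genes higher and 1.49% lower. Those shares stand for 183 genes higher and 92 lower, and with upper-quartile scaling they became 150 and 150, with 0 of the 59 still called and all 59 fitted values above 0. At an unadjusted p under 0.05 it counted 16 of the 59 (27.1%), against 21.7% of all genes, and DESeq2 called 6 of the 59, beside 5.47% of all genes called higher.

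NOG2 (YNR053C) encodes a GTPase that checks the nuclear particle before export and had the largest fitted difference in NTT1. It had 222.7, 225.5 and 241.3 CPM in treated NTT1 libraries, against 122.4, 128.1 and 131.4 in untreated NTT1 libraries. All treated libraries lay above all untreated ones, and the fitted difference was 0.85 on the log2 scale (SE 0.26, adjusted p = 0.0925). RSA4 (YCR072C), which MDN1 pulls on to remodel the particle, had 86.9, 80.1 and 92.4 CPM in treated NTT1 libraries, against 46.5, 50.4 and 53.5 in untreated ones. The groups again did not overlap, at a log2 difference of 0.79 (SE 0.25, adjusted p = 0.0979). SSF1 (YHR066W), a factor of an early nucleolar module, had 102.9, 106.3 and 109.5 CPM in treated NTT1 libraries, against 63.3, 68.5 and 67.1 in untreated ones (log2 0.68, SE 0.24, adjusted p = 0.127).

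NOP2 (YNL061W), an rRNA methyltransferase, had the smallest p-value of the 59 in NTT1 cells. Its levels were 170.7, 203.2 and 178.6 CPM with ATP, against 130.4, 109.5 and 110.3 CPM without (log2 0.66, SE 0.20, adjusted p = 0.0841). IPI1 (YHR085W), a subunit of the Rix1 complex that works with MDN1, had 57.3, 54.2 and 48.4 CPM in treated NTT1 libraries, against 32.3, 33.5 and 35.6 in untreated ones (log2 0.66, adjusted p = 0.109). PUF6 (YDR496C), an RNA-binding protein also known for localising and repressing an mRNA in yeast buds, had 190.9, 209.6 and 208.1 CPM in treated NTT1 libraries, against 123.3, 135.6 and 127.0 in untreated ones (log2 0.66, adjusted p = 0.103). For all of these the lowest treated library stood clearly above the highest untreated one.

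At the other end stood the 4 genes with the lowest fitted differences in NTT1, between 0.07 and 0.10. NIP7 (YPL211W), an RNA-binding factor of the early particle, had 84.5, 99.4 and 87.9 CPM with ATP, against 80.8, 99.1 and 79.4 without. NOP7 (YGR103W), a scaffold of the complex that guides processing of the internal spacer, had 277.2, 370.3 and 285.7 CPM with ATP, against 297.6, 322.0 and 265.9 without. LOC1 (YFR001W), a nucleolar RNA-binding protein, had 51.4, 63.0 and 53.8 CPM with ATP, against 52.2, 58.1 and 49.1 without. MDN1 had 132.7, 149.7 and 124.0 CPM with ATP, against 121.2, 126.1 and 133.0 without. Treated and untreated NTT1 libraries overlapped in each of these genes.

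The count of 0 in NTT1 depended on which libraries set the estimate of spread. When only the 6 NTT1 libraries entered the fit, 30 of the 59 genes passed, beside 9.11% of all genes, with the smallest adjusted p of the 59 at 0.000717 for NOG2. In a fit of 11 libraries without untreated wild-type replicate 3, 32 of the 59 passed (54.2%), beside 9.25% of all genes, with the same median log2 fold change of 0.27. All of these calls were higher with ATP.

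In wild type, 11 of the 59 genes rose with ATP (18.6%) and none fell, against 5.42% of all genes called higher and 7.31% called lower. They were NOG2, SSF1, RSA4, SPB1, NOG1, CIC1, PUF6, IPI1, MRT4, NSA2 and RRP15. The median log2 fold change of the 59 was 0.37, a 1.29-fold difference, against 0.00 over all genes tested, and 58 of the 59 values were above 0. At an unadjusted p under 0.05 there were 30 of 59 (50.8%), against 30% of all genes. Every treated wild-type library lay above every untreated one in 14 of the 59 (23.7%), beside 13.4% of all genes in that direction and 13.7% in the opposite one, which no assembly factor gene showed.

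NOG2 had 211.2, 194.7 and 228.7 CPM in treated wild-type libraries, against 74.7, 70.1 and 169.3 in untreated ones, and rose by 1.01 on the log2 scale (SE 0.26, adjusted p = 0.0332). SSF1 had 98.9, 97.8 and 111.7 CPM with ATP, against 36.3, 41.4 and 84.2 without (log2 0.93, SE 0.24, adjusted p = 0.0328). RSA4 had 80.3, 74.3 and 89.1 CPM with ATP, against 29.9, 30.9 and 68.0 without (log2 0.92, SE 0.25, adjusted p = 0.0387). In all these genes untreated replicate 3 lay far above the other untreated libraries and below the lowest treated one. SPB1 (YCL054W), an rRNA methyltransferase of late nucleolar particles, had 155.8, 160.2 and 171.2 CPM in treated wild-type libraries, against 63.2, 65.0 and 133.9 in untreated ones (log2 0.89, SE 0.23, adjusted p = 0.0308). NOG1 (YPL093W), a GTPase that stays on the particle from nucleolus to cytoplasm, had 439.7, 449.0 and 492.8 CPM with ATP, against 197.9, 188.0 and 371.4 without (log2 0.87, SE 0.21, adjusted p = 0.0276).

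CIC1 (YHR052W), which sits on the internal spacer RNA, had the smallest adjusted p of the 59 in wild type, with 170.0, 169.8 and 187.1 CPM with ATP, against 76.2, 73.8 and 141.2 without (log2 0.86, SE 0.20, adjusted p = 0.0267). PUF6 had 187.9, 197.5 and 211.0 CPM with ATP, against 83.3, 82.3 and 164.1 without (log2 0.86, adjusted p = 0.0304). IPI1 had 51.2, 43.9 and 54.3 CPM with ATP, against 21.2, 21.8 and 42.8 without (log2 0.80, adjusted p = 0.0394). The same pattern of 2 low and 1 high untreated library recurred in each. MRT4 (YKL009W), the placeholder for the stalk protein P0, had 176.3, 171.2 and 189.2 CPM with ATP, against 88.3, 73.9 and 151.1 without (log2 0.78, adjusted p = 0.0341). NSA2 (YER126C), a partner of RSA4 on the particle, had 119.7, 119.5 and 125.7 CPM with ATP, against 66.9, 53.7 and 104.6 without (log2 0.70, adjusted p = 0.0353). RRP15 (YPR143W), of the module around SSF1, had 59.03, 58.6 and 61.5 CPM with ATP, against 40.4, 34.5 and 55.0 without (log2 0.46, SE 0.14, adjusted p = 0.0478). RRP15 no longer passed with upper-quartile scaling (adjusted p = 0.0566).

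**Figure D2:**
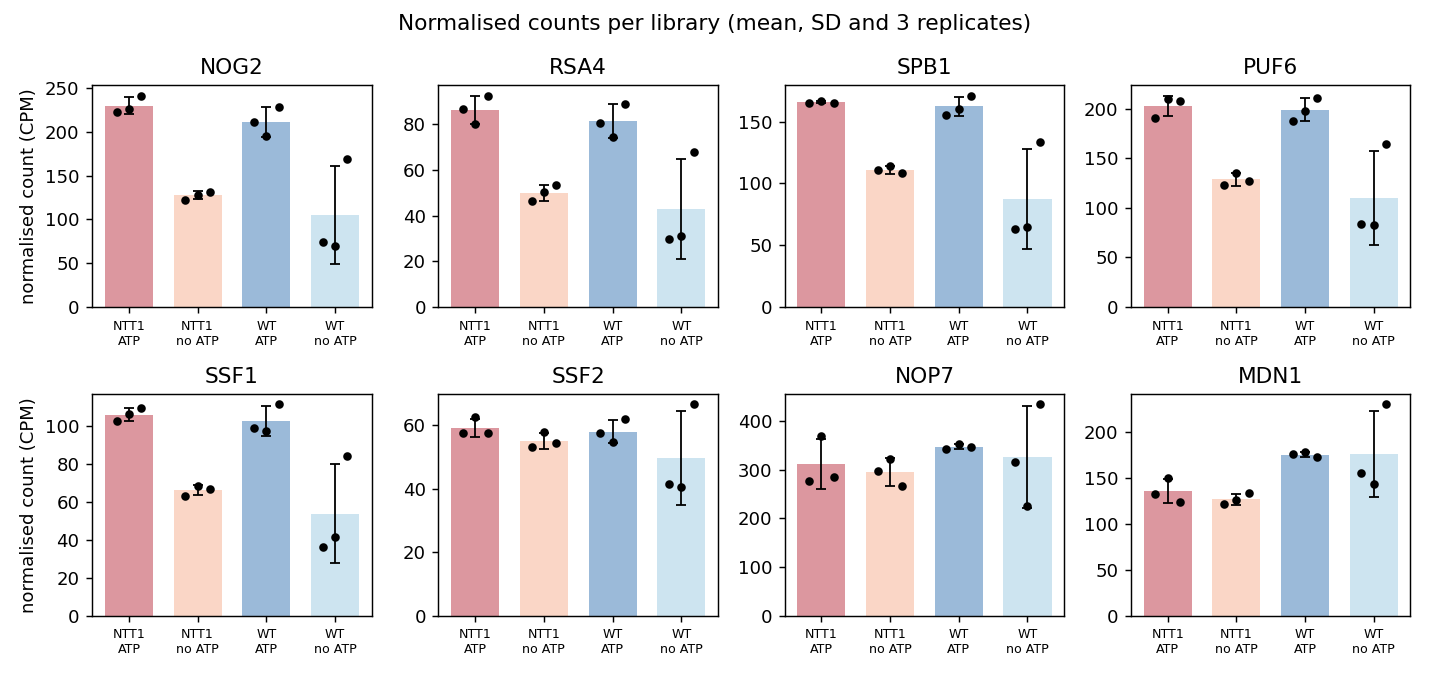
Normalised counts (CPM, y axis from 0) of 8 genes in NTT1 with ATP, NTT1 without ATP, wild type (WT) with ATP and WT without ATP; bars are means, error bars SDs and points the 3 replicates in order. NOG2, RSA4, SPB1, PUF6 and SSF1 are higher in every treated library than in every untreated library of the same strain, while NOP7 and MDN1 overlap, and the third untreated WT point is high in all 8 genes.

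The smallest wild-type differences were those of MDN1, NOP7, NSA1 and RSA3. MDN1 had 175.5, 177.6 and 172.5 CPM with ATP, against 155.0, 143.1 and 229.9 without, and its log2 fold change was -0.01, the only value of the 59 below 0. NOP7 had 342.0, 352.6 and 347.1 CPM with ATP, against 316.0, 226.1 and 434.5 without (log2 0.09). NSA1 (YGL111W), which RIX7 removes from the particle, had 110.0, 106.6 and 113.1 CPM with ATP, against 92.7, 80.4 and 127.4 without (log2 0.13), and RSA3 (YLR221C), of the early Npa1 complex, had 96.3, 98.6 and 102.1 with ATP, against 88.2, 68.3 and 112.9 without (log2 0.14). In these genes untreated replicate 3 lay above every treated wild-type library, so the groups overlapped.

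Without untreated wild-type replicate 3, 58 of the 59 genes rose with ATP in wild type (98.3%), beside 16.3% of all genes, and the median log2 fold change of the 59 was 0.67. NOP7 alone did not pass there (log2 0.36, adjusted p = 0.0952), and MDN1 rose slightly (log2 0.23, adjusted p = 0.0434). The 11 genes called with all 12 libraries then had log2 fold changes between 0.67 for RRP15 and 1.55 for NOG2, and SPB1 had 1.34 at an adjusted p of 1.19e-06. When any of the other 5 wild-type libraries was left out instead, none of the 59 passed. When only the 6 wild-type libraries entered the fit, 0 of the 59 passed by edgeR, beside 0.147% of all genes, 15 had an unadjusted p under 0.05, and the smallest adjusted p was 0.14 for CIC1. DESeq2 on all 12 libraries called 20 of the 59, beside 8.25% of all genes called higher. The wild-type counts thus ranged from 0 to 58 with the libraries in the fit.

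**Figure D3:**
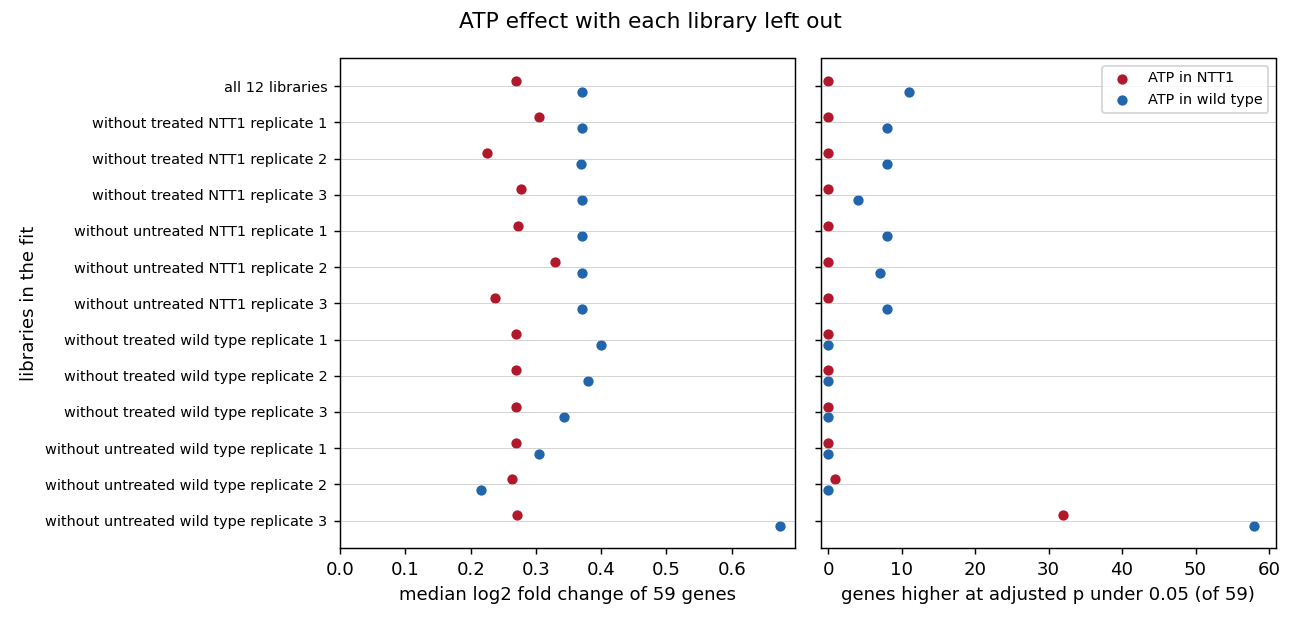
Median log2 fold change of the 59 genes (left) and number of the 59 higher at an adjusted p under 0.05 by edgeR (right), in the fit of all 12 libraries and in fits leaving out 1 library, for ATP in NTT1 and ATP in wild type. Without untreated wild-type replicate 3 the counts are 32 in NTT1 and 58 in wild type; leaving out any other wild-type library gives 0 in wild type.

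The order of the genes by ATP difference was much alike in the 2 strains, which share no library in these comparisons. Across the 59 genes, Spearman's rho between the NTT1 and the wild-type log2 fold changes was 0.935 and Pearson's r 0.943. Without untreated wild-type replicate 3 rho was 0.914. These describe genes measured in the same 12 libraries and scaled together, and genes are not independent replicates. Of the 10 genes with the largest difference in NTT1, 9 were among the 10 largest in wild type, and of the 10 smallest 8 were shared. The height of untreated wild-type replicate 3 over replicates 1 and 2 also followed this order, with a rho of 0.729 against the NTT1 log2 fold change.

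**Figure D4:**
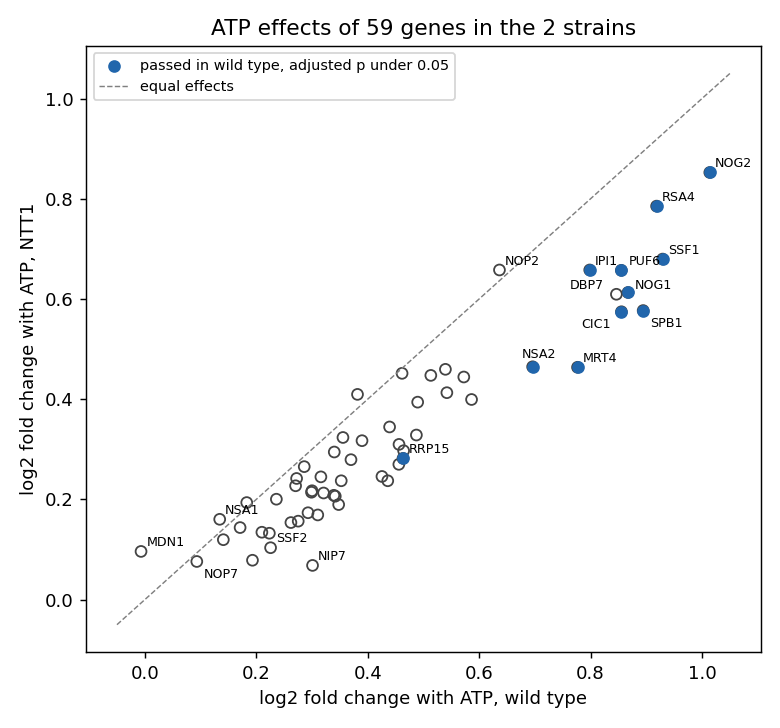
Fitted log2 fold changes with ATP of the 59 genes, wild type on the x axis and NTT1 on the y axis; filled points passed in wild type at an adjusted p under 0.05 and the dashed line marks equal effects. NOG2, RSA4 and SSF1 lie at the upper right and MDN1, NOP7 and NSA1 at the lower left; 54 of the 59 points have the larger value in wild type.

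Grouped by role, the rRNA methyltransferases NOP2 and SPB1 with NIP7 had the highest median log2 fold changes, 0.58 in NTT1 and 0.64 in wild type, although NIP7 itself had 0.07 in NTT1 and 0.30 in wild type. The 4 GTPases split in the same way in both strains. NOG1 and NOG2 had 0.61 and 0.85 in NTT1 and 0.87 and 1.01 in wild type, whereas NUG1, a nuclear GTPase, and LSG1, the cytoplasmic GTPase that helps release the export adapter NMD3, had 0.16 and 0.19 in NTT1 and 0.28 and 0.18 in wild type. In wild type 2 of the 4 GTPases rose, where 5.42% of all genes were called higher with all 12 libraries. In the fit without untreated wild-type replicate 3, 2 of the 3 genes of the first group and 2 of the 4 GTPases rose in NTT1, and all of both groups rose in wild type, with wild-type medians of 0.97 and 0.90. The 5 placeholder and export factors RLP24, TIF6, MRT4, NMD3 and ARX1 had medians of 0.41 in NTT1 and 0.54 in wild type, and MRT4 rose in wild type. RLP24 had a log2 fold change of 0.54 in wild type at an adjusted p of 0.0544, just outside the threshold. TIF6 had 306.5, 343.7 and 332.4 CPM in treated NTT1 libraries, against 285.8, 296.3 and 265.0 in untreated NTT1 libraries, a small difference (log2 0.21) with no overlap. In wild type it had 335.9, 356.6 and 357.8 CPM with ATP, against 282.0, 235.4 and 336.3 without (log2 0.30), and untreated replicate 3 fell inside the treated range. Without that library 3 of the 5 placeholder and export factors rose in NTT1 and 5 of 5 in wild type, with a wild-type median of 0.82. All role-group counts without that library stand beside 9.25% of all genes called higher in NTT1 and 16.3% in wild type. The library was left out for its values in these same genes, so such counts are no finding about a role.

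The 8 genes grouped as AAA ATPases and Rix1 complex, to which RSA4, NSA2 and SDA1 were added though they are neither, spanned nearly the whole range. RSA4, IPI1 and NSA2 rose in wild type, while MDN1, the ATPase whose substrate RSA4 is, had the lowest value of all. Their medians were 0.46 in NTT1 and 0.50 in wild type. With untreated wild-type replicate 3 left out, 6 of the 8 rose in NTT1 and 8 of 8 in wild type, with a wild-type median of 0.90. RPF2 and RRS1, which bring in the 5S RNP, had log2 fold changes of 0.19 and 0.24 in NTT1 and 0.35 and 0.44 in wild type, and neither passed. Without that library both rose in wild type (log2 0.64 and 0.72) and neither passed in NTT1. The Noc proteins MAK21, NOC2 and NOC3, early scaffolds, lay close together between 0.28 and 0.34 in NTT1 and between 0.37 and 0.44 in wild type, and none of the 3 passed. Without that library all 3 rose in both strains, with wild-type values between 0.68 and 0.71. In that fit 9.25% of all genes were called higher in NTT1 and 16.3% in wild type.

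Among the 9 ITS2 and A3 factors, which bind and help process the internal spacer, CIC1 rose in wild type and the other 8 did not pass, with group medians of 0.27 in NTT1 and 0.36 in wild type. Of the 8 genes of the Nsa1 and Ssf1 modules, SSF1 and RRP15 rose in wild type, with group medians of 0.24 in NTT1 and 0.35 in wild type. When untreated wild-type replicate 3 was left out, 5 of the 9 ITS2 and A3 factors and 4 of the 8 genes of the modules rose in NTT1, and 8 of 9 and 8 of 8 rose in wild type, with wild-type medians of 0.65 and 0.61. With all 12 libraries none of the 9 RNA helicases passed in either strain. Their medians were 0.27 in NTT1 and 0.34 in wild type, and DBP7 was highest with 0.61 in NTT1 and 0.85 in wild type (adjusted p = 0.195 in NTT1 and 0.0534 in wild type). Without that library 5 of the 9 helicases rose in NTT1 and 9 of 9 in wild type, with a wild-type median of 0.63 and DBP7 at 1.36. Of the 5 other RNA-binding factors PUF6 rose in wild type, and the medians were 0.21 in NTT1 and 0.32 in wild type, while without that library 2 of 5 rose in NTT1 and 5 of 5 in wild type, with a wild-type median of 0.51. The Npa1 complex, URB1, URB2 and RSA3, which gathers on the earliest precursor, had the lowest medians, 0.13 in NTT1 and 0.21 in wild type, and none of the 3 passed. Without that library none of the 3 passed in NTT1 and all 3 rose in wild type, with a wild-type median of 0.48. The group medians in NTT1 moved by less than 0.01 in that fit, which called 9.25% of all genes higher in NTT1 and 16.3% in wild type. When any other wild-type library was left out instead, none of these genes passed in wild type. Differences between role groups were not tested.

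**Figure D5:**
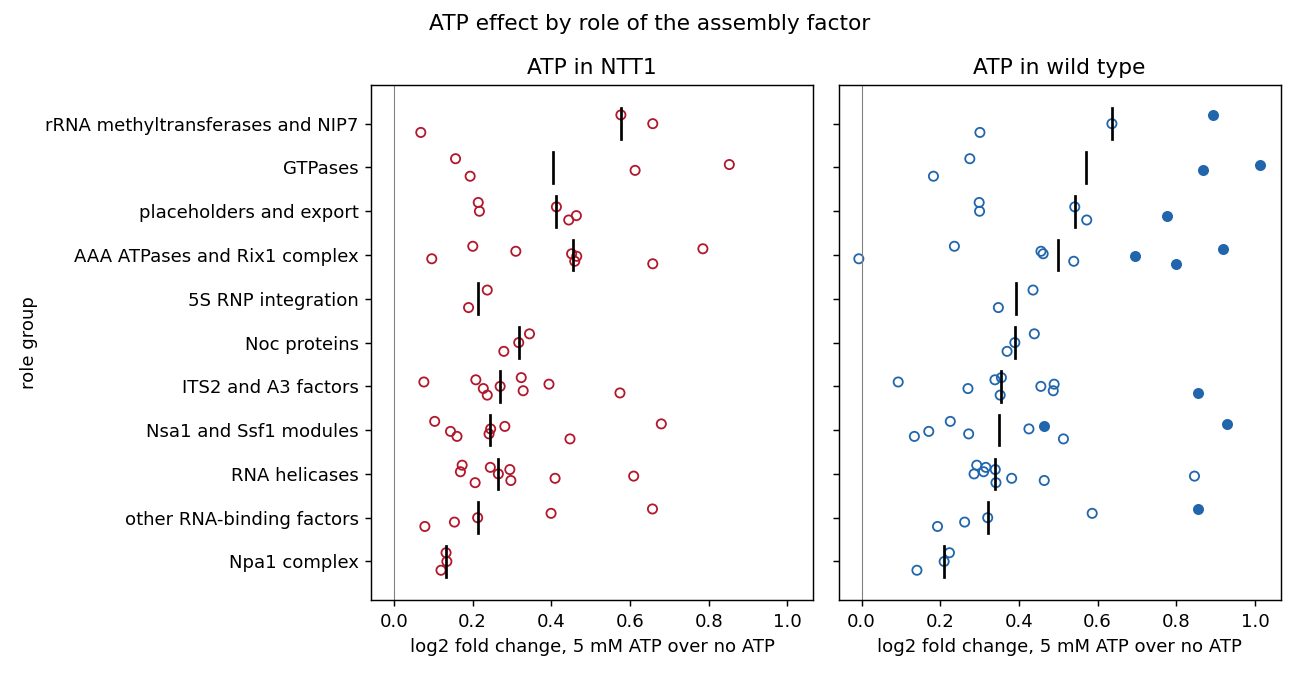
Fitted log2 fold change with 5 mM ATP over no ATP for each gene, by role group, in NTT1 (left) and wild type (right); filled points passed at an adjusted p under 0.05, open points did not, and black bars are group medians. The methyltransferases and GTPases have the highest medians in wild type, 0.64 and 0.57, and the Npa1 complex the lowest in both strains.

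SSF1 and SSF2 encode close copies of 1 protein. Over 1362 bases of coding sequence, 1254 are identical (92.1%), with the longest identical run at 92 bases, so reads could be shared, split or dropped between the copies and both values are uncertain. SSF2 (YDR312W) had 57.4, 62.4 and 57.5 CPM in treated NTT1 libraries, against 52.9, 57.8 and 54.4 in untreated NTT1 libraries (log2 0.10, adjusted p = 0.739). In wild type it had 57.5, 54.6 and 61.7 CPM with ATP, against 41.4, 40.6 and 66.5 without (log2 0.23, adjusted p = 0.362). SSF2 rose with ATP in wild type without untreated wild-type replicate 3 (log2 0.50, adjusted p = 0.000322), beside 1.40 for SSF1, and in NTT1 it then had 0.10 (adjusted p = 0.281). Its libraries overlapped between treated and untreated cells in both strains, unlike those of SSF1. The upstream stretches of the copies, printed above, differ in their cores, and no part of the difference in counts was tested against them.

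By letters anywhere in the window, its 50 coding bases included, the 42 genes with both cores had median log2 fold changes of 0.28 in NTT1 and 0.38 in wild type. The 13 with a PAC core alone had 0.21 in NTT1 and 0.32 in wild type. Medians of the 4 with an RRPE core alone were 0.51 in NTT1 and 0.63 in wild type. Of the 42, IPI3 has its only PAC core in its coding bases, and the other 41 had both cores upstream. The genes with both cores ranged from 0.07 to 0.85 in NTT1 and from -0.01 to 1.01 in wild type. Those with a PAC core alone ranged from 0.12 to 0.68 in NTT1 and from 0.14 to 0.93 in wild type. The 4 with an RRPE core alone ranged from 0.16 to 0.66 in NTT1 and from 0.13 to 0.89 in wild type. Differences between these classes were not tested. Leaving out untreated wild-type replicate 3, the wild-type medians were 0.68 with both cores, 0.51 with a PAC core alone and 1.02 with an RRPE core alone, and the range with both cores was 0.23 to 1.55.

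The strains were compared at equal treatment. With ATP, none of the 59 genes passed between NTT1 and wild type, beside 0.0162% of all genes called higher and 0.0487% called lower, and the median log2 fold change was -0.03. An unadjusted p under 0.05 was found for 1 of the 59 (1.69%), MDN1, against 4.52% of all genes, and DESeq2 called 0. No gene had every NTT1 library above every wild-type library (8.2% of all genes did). In 2 genes, MDN1 and RRP14, every NTT1 library lay below every wild-type library, beside 7.97% of all genes. MDN1 averaged 135.5 ± 13.1 CPM in treated NTT1 and 175.2 ± 2.56 CPM in treated wild type (SD, n = 3 each), a difference of -0.37 on the log2 scale (SE 0.15, adjusted p = 0.999). RRP14, a factor of the module around SSF1, averaged 96.9 ± 1.71 CPM in treated NTT1 and 102.9 ± 2.92 CPM in treated wild type, a log2 fold change of -0.09. NOP2 had 170.7, 203.2 and 178.6 CPM in treated NTT1 libraries, against 235.9, 231.4 and 200.5 in treated wild-type libraries (log2 -0.27, adjusted p = 0.999), and the strains overlapped.

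Without ATP, again none of the 59 passed by edgeR, beside 0.0325% of all genes called higher and 0.0162% called lower, and the median log2 fold change was 0.07, with 50 of the 59 values above 0. Only 15 of the 59 values were above 0 without untreated wild-type replicate 2 (median -0.09) and 27 without replicate 1 (median -0.0032). MDN1 was again the 1 gene with an unadjusted p under 0.05 (1.69%), against 9.7% of all genes, and DESeq2 called 0. No gene had every NTT1 library above every wild-type one, beside 4.27% of all genes, and MDN1 was the 1 gene with the opposite order, beside 5.13% of all genes. MDN1 averaged 126.7 ± 5.93 CPM in untreated NTT1 and 176 ± 47.0 CPM in untreated wild type (log2 -0.47, SE 0.15, adjusted p = 0.354). It was the gene of the 59 whose libraries were lower in NTT1 at both treatments.

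Leaving out untreated wild-type replicate 3 changed the comparison without ATP and not the one with ATP. Then 35 of the 59 genes were higher in untreated NTT1 than in untreated wild type (59.3%), beside 4.61% of all genes, and the median log2 fold change was 0.37. SPB1 was higher by 0.79 on the log2 scale (SE 0.06, adjusted p = 0.000114), at 110.7, 114.5 and 108.3 CPM in untreated NTT1 libraries, against 63.2 and 65.0 in untreated wild-type replicates 1 and 2. With ATP the count stayed at 0 and the median at -0.03.

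The ATP difference in NTT1 minus that in wild type did not pass by edgeR for any gene tested, so the background is 0% in both directions. For 54 of the 59 genes it was below 0, with a median of -0.12, and no gene of the 59 had an unadjusted p under 0.05, against 5.93% of all genes. DESeq2 called 0 of the 59. The smallest adjusted p of the 59 was 0.987, for MRT4, at a log2 difference of -0.31 (SE 0.29), with SPB1 at -0.32 (SE 0.32) and CIC1 at -0.28 (SE 0.28) next by p. Without untreated wild-type replicate 3 the difference was below 0 for all 59 genes, with a median of -0.39, and 16 passed, beside 1.04% of all genes called lower. SPB1 led them at -0.76 (SE 0.08, adjusted p = 0.00503), followed by DBP7 at -0.75 and SSF1 at -0.72. By contrast, 42 of the 59 differences were above 0 without untreated wild-type replicate 2, with a median of 0.048. With all 12 libraries, or with any of the other 11 left out, 0 of the 59 passed.

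Other genes of the pathway were counted from lists written with earlier results known. Of all genes tested, 2.97% were called higher in NTT1 and 5.42% in wild type. Of 60 assembly factors of the small subunit, 1 rose in NTT1, the rRNA methyltransferase fibrillarin, NOP1 (log2 1.11, adjusted p = 0.0210), and 9 rose in wild type. Their median log2 fold changes were 0.33 in NTT1 and 0.41 in wild type. Of 32 further 60S factors, REI1, a cytoplasmic factor that helps recycle ARX1, rose in both strains (log2 1.04 in NTT1 and 1.24 in wild type), and ALB1, NOP53 and SDO1 also rose in wild type, with medians over the list of 0.18 in NTT1 and 0.28 in wild type. Of 14 genes of RNA polymerase I and its initiation factors, RRN11 rose in both strains (log2 1.40 in NTT1 and 1.73 in wild type), with medians of 0.23 in NTT1 and 0.27 in wild type. With all 12 libraries, no gene of these 3 lists fell in either strain or passed between the strains. Without untreated wild-type replicate 3, 44 of the 60 small-subunit factors rose with ATP in NTT1, beside 9.25% of all genes. So did 9 of the 32 further 60S factors and 5 of the 14 polymerase I genes. In that fit 43 of the 60 small-subunit factors were higher in untreated NTT1 than in untreated wild type. So were 13 of the 32 further 60S factors and 5 of the 14 polymerase I genes, beside 4.61% of all genes. The ATP difference in NTT1 minus that in wild type was then called lower for 20, 2 and 1 genes of these lists, beside 1.04% of all genes.

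Transcripts of the 60S ribosomal protein genes had medians near 0, 0.01 in NTT1 and 0.06 in wild type. Values above 0 were found for 43 of the 79 tested in NTT1 and 74 in wild type, beside 49.2% and 50.7% of all genes. Between the strains with ATP, 9 of the 79 were above 0 (median -0.08), beside 50.7% of all genes. Of 79 tested, 0 passed in NTT1 by edgeR, beside 2.97% of all genes called higher. At an unadjusted p under 0.05 there were 4 in NTT1, beside 21.7% of all genes. RPL22A (log2 1.01, adjusted p = 0.0131) and RPL28 (log2 0.85, adjusted p = 0.0119) rose in wild type, beside 5.42% of all genes called higher. Most of these genes are near-identical pairs, so their counts are uncertain. Their promoter windows held the PAC core in 8 of 81 (9.88%) and the RRPE core in 6 of 81 (7.41%). The windows of the small-subunit factors held the PAC core in 91.7% and the RRPE core in 75%. Without untreated wild-type replicate 3, 58 of the 60 small-subunit factors, 27 of the 32 further 60S factors, 12 of the 14 polymerase I genes and 5 of 80 ribosomal proteins rose with ATP in wild type. Over all genes tested in that fit the share was 16.3%. The wild-type medians of these 4 lists were then 0.735, 0.529, 0.498 and 0.139. In NTT1 the same fit called 1 of 80 ribosomal proteins higher, beside 9.25% of all genes. No test compared the lists with each other.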

How the data were processed

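The authors deposited 1 table of raw counts per gene, 1 column per library, whole numbers with different totals. Per the submitters' processing notes, HISAT2 2.0.5, featureCounts 1.5.0, DESeq2 1.20.0 and genome build R64 were used. The annotation and the use of strand are not given in the sources used here, so overlapping genes and close copies are uncertain. Columns were matched to libraries by the library names in the labels and groups were taken from the titles.

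Symbols and coding lengths came from RefSeq R64 by locus tag (6023 features matched; 311 of 7127 had 0 counts throughout). edgeR 4.0.16 in R 4.3.3 was fitted to the deposited counts of all 12 libraries with a mean per group, after filterByExpr by group (6157 genes, 99.99% of counts) and TMM scaling. Quasi-likelihood F-tests of 5 contrasts were adjusted by Benjamini-Hochberg over all genes tested, at a threshold of 0.05. Fold changes use a prior count of 0.125, and SEs, taken from the fold change and F, are approximate. CPM are TMM-normalised. The p-values rest on the spread between these biological replicates, estimated over all groups together. The spread in untreated wild type therefore also enters the tests in NTT1. The fit was run on simulated data in which no library departed from its group. That run does not bear on the dependence on untreated wild-type replicate 3. Alternatives were DESeq2 1.42.0, other scalings, no filter, a replicate block, only the groups compared, and each library left out.

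The genes and lists were chosen with earlier results of these data known. Genes given per library had the 6 highest or 4 lowest ATP differences in a strain, a call (up to the 10 smallest p), the 3 smallest p between strains or in the interaction, the highest or lowest level per length, or belong to the pair SSF1 and SSF2. RRP15 entered by its p between strains. RRP14 and genes named within role groups were chosen after their values were seen. The list of 60S ribosomal proteins takes RefSeq symbols RPL or RPP with a number, without RPP1, a subunit of RNase P and MRP that was removed after the first run. Intervals of shares are Clopper-Pearson at 95%.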

Additional observations from a re-analysis of the deposited data

How the results depend on the processing

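Scaling by DESeq2 size factors or upper-quartile factors, and no filter on low counts, kept the counts of the 59 genes called within 1.5 times and the direction of their medians. DESeq2's test called 6 of the 59 genes for ATP in NTT1 and 20 in wild type, in place of 0 and 11. With only the groups compared in the fit, the counts were 30 and 0. Leaving out each of the 12 libraries gave 0 to 32 calls in NTT1 and 0 to 58 in wild type, medians of 0.22 to 0.33 and 0.22 to 0.67, and MDN1 values in wild type of -0.13 to 0.23. It gave 4 calls in wild type without treated NTT1 replicate 3, 7 without untreated NTT1 replicate 2 and 8 without each of the other NTT1 libraries.

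Between strains with ATP, leaving out a library gave 0 calls throughout and medians of -0.069 to 0.0042, the upper end without treated NTT1 replicate 1. Without ATP it gave 0 to 35 calls and medians of -0.09 to 0.37. The median was below 0 without untreated wild-type replicate 1 (-0.0032) or replicate 2 (-0.092). For the strain difference in the ATP effect it gave 0 to 16 calls and medians of -0.39 to 0.048, above 0 without untreated wild-type replicate 2. The highest counts are all without untreated wild-type replicate 3, and the cause was not tested.

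The titles number the replicates and do not say that equal numbers are paired, and correlations within groups of 3 cannot decide it. Same-numbered deviations correlated at -0.01 to 0.16 for ATP in NTT1, -0.04 to 0.10 for ATP in wild type, -0.06 to 0.04 between strains with ATP and -0.44 to 0.31 without. With the replicate block, 0 genes were called in NTT1 and 11 in wild type, and 0 in the other comparisons, RRP15 being lost (adjusted p = 0.0606) and DBP7 gained (adjusted p = 0.0378) in wild type, with medians of 0.27, 0.39, -0.02, 0.10 and -0.12. Among promoters, GCGATGAG in place of GATGAG gave 59.3% in place of 93.2%. With 3 libraries per group and a spread shared by all groups, a single library can set what is called, and values of close copies are uncertain. Which untreated wild-type library is the unusual one cannot be told from 3.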

Other observations

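In the RefSeq order of genes, 8 of the 59 genes stood directly beside another assembly gene of the lists. NSA2 and LCP5 were divergent, with 301 bases between them. DBP8 and NMD3 (351 bases), UTP9 and RIX1 (237), NOC3 and CMS1 (520), RSA3 and UTP13 (293) and NOG2 and ESF2 (243) lay in tandem. GRC3 and RIX7 (154) and RRP15 and NOC4 (689) were convergent. With all 12 libraries UTP9, DBP8 and UTP13 rose with ATP in wild type (log2 0.80, 0.79 and 0.66), beside RIX1, NMD3 and RSA3, which did not pass (log2 0.46, 0.30 and 0.14). Without untreated wild-type replicate 3, RIX1, NMD3 and RSA3 passed by edgeR too (log2 0.82, 0.55 and 0.34, adjusted p = 2.7e-05, 0.0021 and 0.0398). In that fit 16.3% of all genes were called higher. Without stated use of strand, reads from convergent neighbours that overlap could not be told apart.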
